A study of Mus musculus with 31 samples.

Results

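In whole lungs of mice that breathed cigarette smoke, 5 miRNAs of leukocytes moved unequally. miR-155-5p, miR-342-3p, miR-342-5p and miR-223-3p were higher after 4 weeks of smoke, while miR-150-5p, measured on the same arrays, was lower in smoke relative to each of the other 4, averaged over the durations. Set against miR-155-5p on the same array, miR-150-5p was lower on all 15 smoke arrays than its paired control array of the same slide and duration. Of all pairs of tested miRNAs, 4.47% had an averaged difference at least as large as this pair. The 5 miRNAs described here are mmu-miR-223-3p, mmu-miR-150-5p, mmu-miR-155-5p, mmu-miR-342-3p and mmu-miR-342-5p, written without the species prefix from here on. They were taken by their names in the scanner files, as markers of myeloid cells, lymphocytes and activated leukocytes. That rule uses no measured value, but the members were chosen with earlier results of these data known. They are 5 of the 650 miRNAs on the array and have 12 of its 1857 probes.

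A mature miRNA guides an Argonaute protein to messenger RNAs that pair with its seed, the stretch near its 5′ end, and lowers their translation and stability. miR-223-3p is a typical miRNA of the granulocyte and monocyte lineage, in which it restrains the differentiation and activation of neutrophils. miR-150-5p is a miRNA of mature, resting B and T lymphocytes, targets the transcription factor Myb, and is reduced when lymphocytes are activated. miR-155-5p is made from a host transcript that is induced in activated B cells, T cells and macrophages, and is needed for normal immune responses in mice. miR-342-3p and miR-342-5p are the arms of a single hairpin within Evl, a gene of actin regulation expressed in haematopoietic cells.

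The study compared female BALB/c mice, an inbred strain, exposed to cigarette smoke, or to room air as the control, over 4, 6, 8 or 12 weeks, and measured the miRNAs in total RNA of the excised lung on 1-colour arrays. The 8 groups are smoke and control at each of the 4 durations, with 4 arrays in each group and 3 in the 12 weeks smoke group, so 15 smoke arrays and 16 control arrays. The labels give no genetic change and no other agent for any group. The sources used here give neither the age of the mice nor the smoke dose, and they do not say whether each array of a group is a separate animal. The p-values thus measure the spread among these samples alone, and that spread may be technical.

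The mature sequences are given so that the seeds and the arms can be compared. They come from RefSeq (GRCm38.p6), 5′ to 3′, with the seed, bases 2 to 8, in capitals. The RefSeq table matched 4 of the 5 miRNAs. miR-223-3p lies at chrX:96242884-96242905, miR-155-5p at chr16:84714143-84714165, miR-342-5p at chr12:108658638-108658659 and miR-342-3p at chr12:108658680-108658702, all on the + strand.
miR-223-3p: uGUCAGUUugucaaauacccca
miR-155-5p: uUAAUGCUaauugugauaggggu
miR-342-3p: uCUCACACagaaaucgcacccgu
miR-342-5p: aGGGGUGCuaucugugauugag
The 4 seeds differ from each other, and 0 other mature mouse miRNAs of the table carry any of them, so none of these 4 belongs to a seed family there. Their GC content was 40.9% for miR-223-3p, 34.8% for miR-155-5p, 52.2% for miR-342-3p and 50.0% for miR-342-5p.

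Both miR-342 arms are cut from the hairpin Mir342 at chr12:108658620-108658718 (+ strand, 99 bases), which lies inside the span of Evl. In its sequence the arms are in capitals, miR-342-5p at positions 19 to 40 and miR-342-3p at positions 61 to 83, with 20 bases between them.
Mir342: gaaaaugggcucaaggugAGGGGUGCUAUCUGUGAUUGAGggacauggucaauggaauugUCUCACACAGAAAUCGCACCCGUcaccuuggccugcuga
In the same annotation Mir155 lies inside Mir155hg, its noncoding host transcript, and Mir223 inside the noncoding gene F630028O10Rik.

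The arrays stood on 4 slides of 8 positions, and every slide held both treatments at all 4 durations, apart from slide 4, of which no 12 weeks smoke array was analysed here. Smoke arrays always occupied the first line of positions and control arrays the second, so array position cannot be told apart from smoke. Along each line the durations always stood in the order 4, 6, 8 and 12 weeks. Array position thus cannot be told apart from duration either. A level is the log2 of the background-subtracted signal over the array's own 75th percentile, which for 1 miRNA can be compared between arrays but not with the level of another miRNA. The arrays detected 226 to 271 miRNAs in smoke lungs and 225 to 299 in control lungs. A leading component, computed over 202 other miRNAs, carried 46.6% of the variance, and 4 weeks smoke arrays 2 and 3 had its highest scores, 8.89 and 4.76, against -4.03 to 3.03 on the other smoke arrays and -5.04 to 3.89 on the control arrays. The 45 pairs of arrays within groups correlated at 0.967 to 1.00, and even the closest pair differed by 0.31 log2 in at least 1 miRNA, so no array was taken for a copy of another.

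miR-155-5p, the miRNA of activated B cells, T cells and macrophages, rose on average and was apart from its controls at 3 of the 4 durations. At 4 weeks it lay at -3.99, -3.00, -3.54 and -4.10 on smoke arrays, against -4.50, -4.32, -4.43 and -4.80 on control arrays. At 6 weeks it lay at -3.53, -3.66, -3.63 and -3.57 on smoke arrays, against -4.40, -4.48, -3.84 and -3.80 on control arrays. The groups did not overlap at either duration, as for 23.6% of all tested miRNAs upward at 4 weeks and 15.9% at 6 weeks. At 8 weeks it lay at -3.59, -4.27, -4.47 and -3.38 on smoke arrays, against -4.26, -4.42, -4.40 and -4.44 on control arrays, which overlapped. At 12 weeks it lay at -3.57, -3.60 and -3.48 on smoke arrays, against -4.05, -3.78, -3.88 and -3.76 on control arrays, apart again, as for 16.6% of all tested miRNAs upward. Averaged over the durations with equal weight, miR-155-5p rose by 0.54 ± 0.11 log2 (difference ± SE, limma adjusted p 0.00031), a 1.45-fold difference. It was higher on the smoke array in 14 of 15 pairs of smoke and control arrays of the same slide and duration. In whole lung, more cells of a type and more of the miRNA per cell cannot be told apart.

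miR-342-3p and miR-342-5p, the arms of 1 hairpin, correlated at 0.96 over the 31 arrays. At 4 weeks miR-342-3p lay at -1.15, -0.29, -0.79 and -1.29 on smoke arrays, against -1.76, -1.59, -1.62 and -2.0 on control arrays. At 6 weeks it lay at -1.13, -1.12, -1.17 and -1.10 on smoke arrays, against -1.71, -1.76, -1.02 and -1.15 on control arrays. At 4 weeks all smoke arrays exceeded all control arrays, as for 23.6% of all tested miRNAs. At 6 weeks 2 of the 4 control arrays were as high as the smoke arrays. At 8 weeks it ranged from -1.83 to -1.08 on smoke arrays and from -1.66 to -1.48 on control arrays, and at 12 weeks from -1.29 to -1.18 on smoke arrays and from -1.38 to -1.26 on control arrays, with overlap at both. Averaged, miR-342-3p rose by 0.32 ± 0.09 log2 (limma adjusted p 0.0093), 1.25-fold. miR-342-5p is a dim miRNA near the floor of -6.74: it ranged from -6.26 to -4.58 over the smoke arrays and from -6.27 to -5.11 over the control arrays. At 4 weeks it lay at -5.57, -4.58, -5.02 and -5.70 on smoke arrays, against -5.95, -5.80, -5.84 and -6.27 on control arrays, which did not overlap. Its averaged difference of 0.27 ± 0.11 log2 did not pass (limma adjusted p 0.076).

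miR-223-3p, the granulocyte and monocyte miRNA, was the most scattered of the 5 within groups, with a pooled standard deviation of 0.41 log2. At 4 weeks it lay at 1.12, 1.69, 1.31 and 1.06 on smoke arrays, against 0.53, 0.69, 0.60 and 0.34 on control arrays. At 6 weeks it lay at 1.28, 1.29, 1.22 and 1.28 on smoke arrays, against 0.47, 0.42, 1.18 and 1.24 on control arrays. The groups were apart at 4 weeks, as for 23.6% of all tested miRNAs upward. They overlapped at 6 weeks, where 2 control arrays reached 1.18 and 1.24. At 8 weeks the smoke arrays spread from 0.38 to 2.49 around control arrays at 0.72 to 0.85. At 12 weeks the smoke arrays, at 1.15, 1.14 and 0.96, lay below all control arrays, at 1.28, 1.36, 1.35 and 1.35. The same held for 25.5% of all tested miRNAs. Averaged, the difference was 0.34 ± 0.14 log2 and did not pass (limma adjusted p 0.068).

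miR-150-5p, the miRNA of resting lymphocytes, had lower means in smoke than in control lungs at 6, 8 and 12 weeks. At 4 weeks it lay at -1.75, -0.75, -1.49 and -1.76 on smoke arrays, against -1.93, -1.52, -1.54 and -2.19 on control arrays. At 6 weeks it lay at -1.76, -1.12, -1.73 and -1.78 on smoke arrays, against -1.82, -1.71, -0.94 and -0.99 on control arrays. Both pairs of groups overlapped. At 8 weeks it lay at -2.29, -2.72, -2.72 and -1.65 on smoke arrays, against -1.72, -1.92, -1.76 and -1.78 on control arrays, so that 3 of the 4 smoke arrays were below every control array. At 12 weeks it lay at -2.03, -2.10 and -1.71 on smoke arrays, against -1.33, -1.12, -1.13 and -1.05 on control arrays, without overlap, as did 25.5% of all tested miRNAs and miR-223-3p in that direction. Neither the 12 weeks difference of -0.79 ± 0.26 log2 (limma adjusted p 0.054) nor the averaged difference of -0.30 ± 0.12 log2 (0.064) passed. The averaged difference passed in 10 of 18 alternatives, the scanner's sum per miRNA (-0.40, limma adjusted p 0.010) and the series table (-0.39, 0.0058) among them, and in 6 of 31 refits without 1 array, with values of -0.45 to -0.28 log2 and adjusted p of 1.9e-05 to 0.33 over the alternatives.

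**Figure D1:**
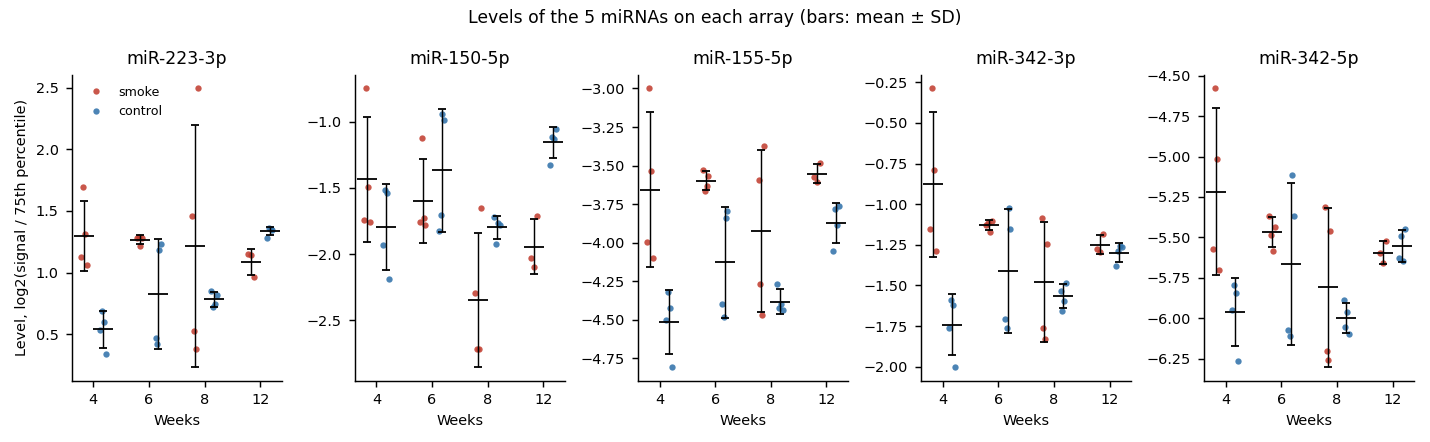
Each panel plots 1 miRNA, with weeks of exposure on the x axis and the level on the y axis as log2 of signal over the array's 75th percentile; points are arrays (smoke red, left; control blue, right) and bars the mean ± SD. miR-155-5p lies higher in smoke at 4, 6 and 12 weeks without overlap, and miR-150-5p lower at 12 weeks without overlap.

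After 4 weeks, 4 of the 5 miRNAs rose: miR-342-3p by 0.86 ± 0.18 log2 (limma adjusted p 0.0015, 1.82-fold), miR-155-5p by 0.86 ± 0.21 (0.0050, 1.81-fold), miR-223-3p by 0.76 ± 0.28 (0.035, 1.69-fold) and miR-342-5p by 0.75 ± 0.22 (0.016, 1.68-fold). Of all 271 miRNAs tested, 37.6% changed in that comparison, 25.8% upward, and their median difference was 0.18 log2. Of the calls 68.6% were upward, against 83.6% when scaled by all probes, 60.9% with quantile scaling and 59.4% in the deposited series table. The groups of these 4 did not overlap, as for 23.6% of all tested miRNAs upward. At 8 weeks 0 of the 5 were without overlap, against 17% of all tested miRNAs. The 4 weeks calls rest on few arrays. Without smoke arrays 2 and 3, which have the highest component scores, the count was 0 of 5 and the 4 values lay at 0.33 to 0.55 log2. Without control array 4, or without smoke array 2 or 3 alone, it was 2 of 5, since miR-223-3p and miR-342-5p no longer passed, with the lowest value 0.53 log2 for miR-342-5p without smoke array 2. miR-223-3p also failed without control array 1 (0.75 log2, limma adjusted p 0.065) or control array 3 (0.78, 0.051). With no scaling between arrays 0 of 5 passed, and with a normexp background correction 1 of 5, miR-223-3p, while miR-150-5p, miR-155-5p and miR-342-5p turned to -0.01, -0.38 and -0.84 log2. miR-223-3p lost its call with quantile scaling (0.65, adjusted p 0.053), the mean of its probes (0.72, 0.052), the scanner's sum per miRNA (0.65, 0.083), the deposited series table (0.63, 0.051) and its dimmer probe (0.68, 0.066). miR-342-5p lost its call with the floor 4 times higher, where its difference was 0.040 log2 (adjusted p 0.29), and kept it at a smaller size with the mean of its probes (0.28) and in the series table (0.32). A fit of the 4 weeks arrays alone left the call of miR-223-3p and ended the other 3.

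At the later durations 0 of the 5 passed, by limma, at 6, 8 or 12 weeks, where 7.75%, 10.7% and 9.23% of all tested miRNAs did. Unadjusted p-values of 0.05 or less were found for miR-155-5p at 6 weeks (0.53 ± 0.21 log2), for miR-155-5p and miR-150-5p at 8 weeks (0.46 ± 0.21 and -0.55 ± 0.24) and for miR-150-5p at 12 weeks. The call of miR-150-5p at 12 weeks lies at the edge of the threshold. It passed in 12 of 19 alternatives. Among them were a fit of the 12 weeks arrays alone (-0.79 log2, limma adjusted p 0.0020) and the deposited series table (-0.92, 0.00548). Its dimmer probe, read from the scanner values, was another (-0.85, 0.037). It did not pass in the remaining 7, no scaling among them (-0.47, limma adjusted p 0.78). The call also held in 13 of the 31 refits without 1 array. Over these refits the value ranged from -0.91 to -0.71 log2 and the adjusted p from 0.027 to 0.21. The fit of the 12 weeks arrays alone also called miR-155-5p as higher (0.32 log2, limma adjusted p 0.019) and miR-223-3p as lower (-0.25, 0.019). Over all alternatives 4 to 103 miRNAs were called at 12 weeks, and the share in that fit alone is not given here. In the averaged comparison 2 of the 5 rose, miR-155-5p and miR-342-3p, where 26.9% of all tested miRNAs changed and 15.5% rose. Those rises were 57.5% of the calls, against 47.0% with quantile scaling, 41.8% in the deposited series table and 27.6% with no scaling. miR-155-5p no longer passed there after the normexp correction (0.16 log2, adjusted p 0.65). miR-342-3p no longer passed after that correction (0.20, 0.55), with no scaling (0.17, 0.31) or with the scanner's sum per miRNA (0.23, 0.052).

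**Figure D2:**
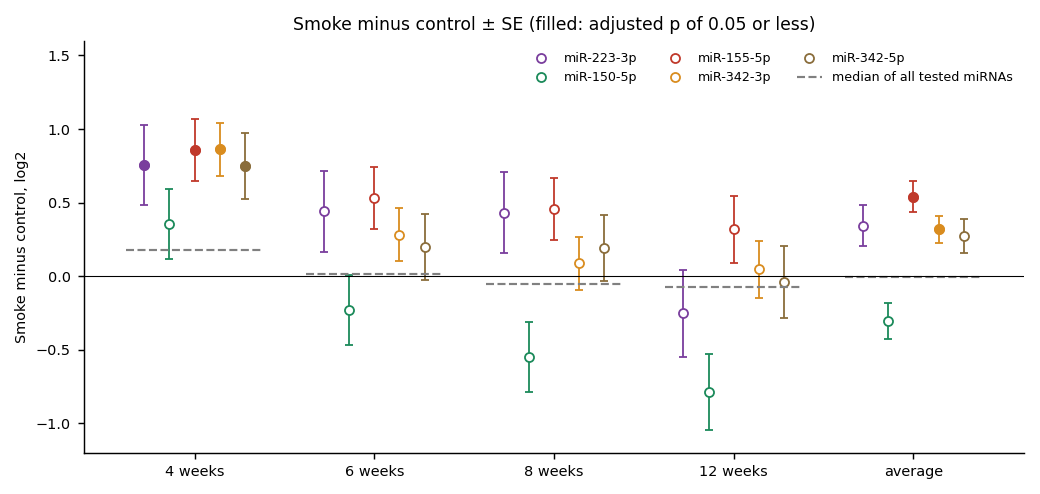
The plot gives, for each duration and for their average (x axis), the difference of smoke minus control in log2 units (y axis) with the standard error of the limma fit, filled where the adjusted p was 0.05 or less, with the median of all tested miRNAs as a dashed line. The 4 filled points at 4 weeks lie between 0.75 and 0.86, and miR-150-5p runs below the other 4 in every column.

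Whether the smoke effect differed from duration to duration was asked with a limma F test, which 0 of the 5 passed, against 6.27% of all tested miRNAs. miR-342-3p and miR-150-5p had unadjusted p-values of 0.014 and 0.017 (adjusted 0.089 and 0.093). Among control mice the durations differed for 0 of 5 (6.64% of all), with unadjusted p-values of 0.026 for miR-155-5p and 0.028 for miR-150-5p. Among smoke mice they also differed for 0 of 5 (2.95% of all), with 0.0041 for miR-150-5p and 0.021 for miR-342-3p.

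In the order of the 8 groups, the highest level of miR-155-5p was in 12 weeks smoke lungs (-3.55 ± 0.06, SD, n = 3), followed by 6 weeks smoke (-3.60 ± 0.06, n = 4) and 4 weeks smoke (-3.66 ± 0.50, n = 4), and the lowest was in 4 weeks control lungs (-4.51 ± 0.21, n = 4). miR-150-5p had its highest level in 12 weeks control lungs (-1.16 ± 0.12, n = 4) and its lowest in 12 weeks smoke (-1.95 ± 0.21, n = 3) and 8 weeks smoke lungs (-2.35 ± 0.50, n = 4). miR-223-3p was highest in 12 weeks control lungs (1.34 ± 0.03, n = 4) and lowest in 4 weeks control lungs (0.54 ± 0.15, n = 4). Both miR-342 arms were highest in 4 weeks smoke lungs, at -0.88 ± 0.45 for miR-342-3p and -5.22 ± 0.52 for miR-342-5p (n = 4 each). Neighbours in these orders mostly overlapped. Gaps larger than the spread, without overlap, separated 8 weeks from 4 weeks control for miR-223-3p and 6 weeks from 12 weeks smoke for miR-342-3p, and no other neighbours.

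The ratio of a pair of miRNAs on the same array does not depend on a factor by which all of an array is divided, and its difference between groups shows that the pair changed unequally, not which member changed. All 10 pairs were compared, smoke minus control averaged over the durations, by an exact permutation test within durations (two-sided, Benjamini-Hochberg over the 10 pairs), and 7 passed. This count is read against the background: of all 36585 pairs of tested miRNAs, 47.5% had an exact permutation p of 0.05 or less. The 10 pairs share members and are not independent of each other.

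The widest gap was between miR-150-5p and miR-155-5p, the resting lymphocyte and the activation miRNA. At 4 weeks the log2 ratio of miR-150-5p over miR-155-5p was 2.25, 2.25, 2.04 and 2.34 on smoke arrays, against 2.58, 2.80, 2.89 and 2.61 on control arrays. At 8 weeks it was 1.30, 1.55, 1.75 and 1.72 on smoke arrays, against 2.54, 2.50, 2.64 and 2.66 on control arrays. At 12 weeks it was 1.54, 1.51 and 1.77 on smoke arrays, against 2.72, 2.67, 2.75 and 2.71 on control arrays. The groups did not overlap at these durations, nor at 6 weeks, where 3 smoke arrays lay at 1.77 to 1.91 and smoke array 2 at 2.54, just under the lowest control array at 2.58. Averaged, the log2 ratio was lower by -0.84 in smoke lungs, a 1.79-fold unequal change (exact permutation p 8.33e-08, the smallest these permutations can give; adjusted 4.2e-07). By duration the difference was -0.50 at 4 weeks, -0.76 at 6 weeks, -1.0 at 8 weeks and -1.11 at 12 weeks, and whether it differs between durations was not tested. Of all pairs of tested miRNAs, 4.47% had an averaged difference at least as large, and 4.55% did not overlap at all 4 durations in 1 direction.

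miR-150-5p was also lower in smoke lungs against the other 3. The log2 ratio of miR-223-3p over miR-150-5p was higher by 0.65 (exact permutation, adjusted p 8.3e-07), with 2.73 ± 0.20 in smoke and 2.33 ± 0.19 in control lungs at 4 weeks and 3.56 ± 0.48 in smoke and 2.58 ± 0.06 in control lungs at 8 weeks (SD, n = 4 each). Its groups overlapped at 4 weeks and not at 6, 8 or 12 weeks. The log2 ratio of miR-150-5p over miR-342-3p was lower by -0.62 (adjusted 5.6e-07), with -0.69 ± 0.15 in smoke (n = 3) and 0.14 ± 0.07 in control lungs (n = 4) at 12 weeks, and over miR-342-5p lower by -0.58 (1.3e-06). Both overlapped at 6 weeks only, through smoke array 2. At least as large a difference was found in 8.53%, 9.30% and 10.9% of all pairs. The normexp correction left the first 2 of these calls in place and ended that of miR-150-5p over miR-342-5p (-0.13, adjusted p 0.72).

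**Figure D3:**
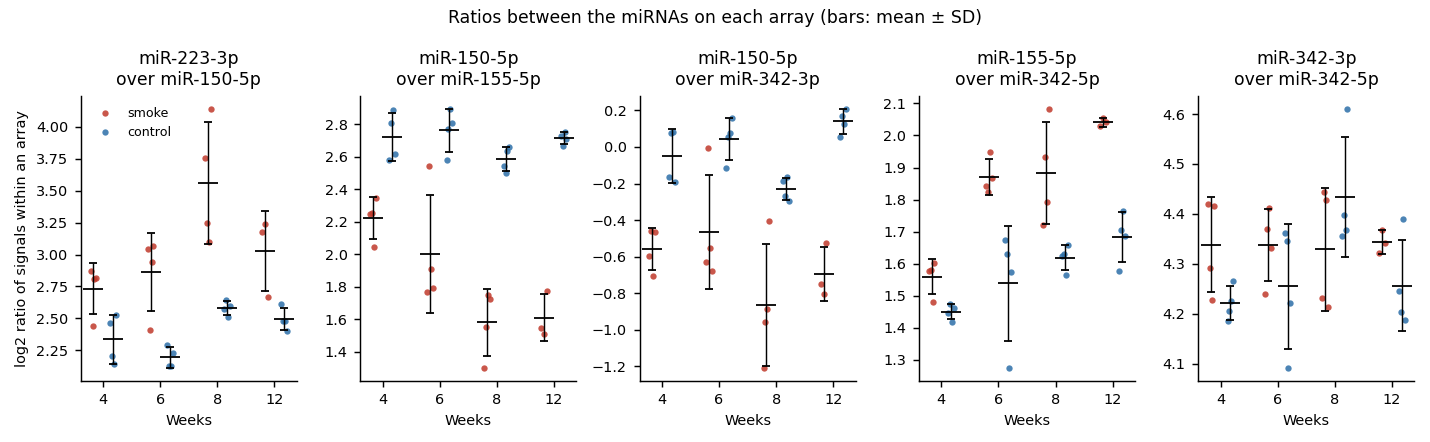
Each panel plots the log2 ratio of a pair of miRNAs within an array (y axis) by weeks of exposure (x axis) for smoke arrays (red, left) and control arrays (blue, right), with the mean ± SD as bars. miR-150-5p over miR-155-5p is lower in smoke without overlap at all 4 durations, and miR-342-3p over miR-342-5p overlaps at all 4.

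miR-155-5p moved ahead of both miR-342 arms by smaller steps. The log2 ratio of miR-155-5p over miR-342-5p was 1.56 ± 0.05 in smoke and 1.45 ± 0.02 in control lungs at 4 weeks (SD, n = 4 each), and 2.04 ± 0.01 in smoke (n = 3) and 1.68 ± 0.08 in control lungs (n = 4) at 12 weeks. It did not overlap at any duration, and the averaged difference was 0.27 (exact permutation, adjusted p 4.2e-07). Against miR-342-3p it was 0.22 (1.6e-05), with an overlap at 4 weeks only, where the difference was -0.01. Differences of at least these sizes occurred in 37.1% and 44.6% of all pairs. After the normexp correction the ratio of miR-155-5p over miR-342-3p turned to -0.04 and did not pass.

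For the remaining pairs the averaged differences were 0.20 or less in size. miR-223-3p over miR-155-5p was lower by -0.20 (exact permutation, adjusted p 0.036), with -0.57 at 12 weeks and -0.10 to -0.02 at the others. At 12 weeks it was 4.64 ± 0.17 in smoke (n = 3) and 5.21 ± 0.10 in control lungs (n = 4). With slides as blocks this call did not hold (-0.19, adjusted p 0.070), nor in 11 of the 31 refits without 1 array, and the normexp correction turned it to 0.19. miR-223-3p over miR-342-3p differed by 0.02, with slides between -0.14 and 0.48, and over miR-342-5p by 0.07, with slides between -0.05 and 0.44. Both turned negative without 8 weeks smoke array 4 (-0.06 and -0.01). miR-223-3p over miR-342-5p passed after the normexp correction (0.56, adjusted p 0.028) and with the floor 4 times higher (0.33, 0.035). miR-342-3p over miR-342-5p, the arms of 1 hairpin, differed by 0.05 (adjusted p 0.27), with slides between -0.05 and 0.13. That ratio passed after the normexp correction (0.41, adjusted p 0.0077), with the floor 4 times higher (0.31, 0.0061), with the deposited series table (0.20, 0.00462), with the mean of all probes (0.23, 0.0020) and with quantile scaling (0.11, 0.023).

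Counted by duration, 4 of the 10 pairs did not overlap at 4 weeks, 5 at 6 weeks, 6 at 8 weeks and 8 at 12 weeks, where 28.8%, 22.8%, 25.4% and 48.2% of all pairs of tested miRNAs did not. With 4 arrays against 4, or 3 against 4, the smallest exact p is 0.029, and adjusted over the 40 tests these 23 each had 0.050.

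Slide and group are separate in this design, so each smoke array was also set against the control array of the same slide and duration, in 15 pairs. miR-150-5p over miR-155-5p was negative in 15 of 15 pairs, with slide means between -0.92 and -0.74. miR-150-5p over miR-342-3p and over miR-342-5p were negative in 15 of 15, and miR-223-3p over miR-150-5p positive in 15 of 15, each at an exact p of 6.1e-05, the smallest that flipping the signs of 15 pairs can give. miR-155-5p over miR-342-5p was positive in 15 of 15 and over miR-342-3p in 13 of 15. How many of all pairs of tested miRNAs keep 1 direction in 15 of 15 was not counted. In the averaged test, 47.5% of them had an exact permutation p of 0.05 or less. The levels themselves were less even: miR-150-5p was lower in smoke in 8 of 15 pairs, miR-223-3p higher in 10, miR-342-3p in 11 and miR-342-5p in 8.

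**Figure D4:**
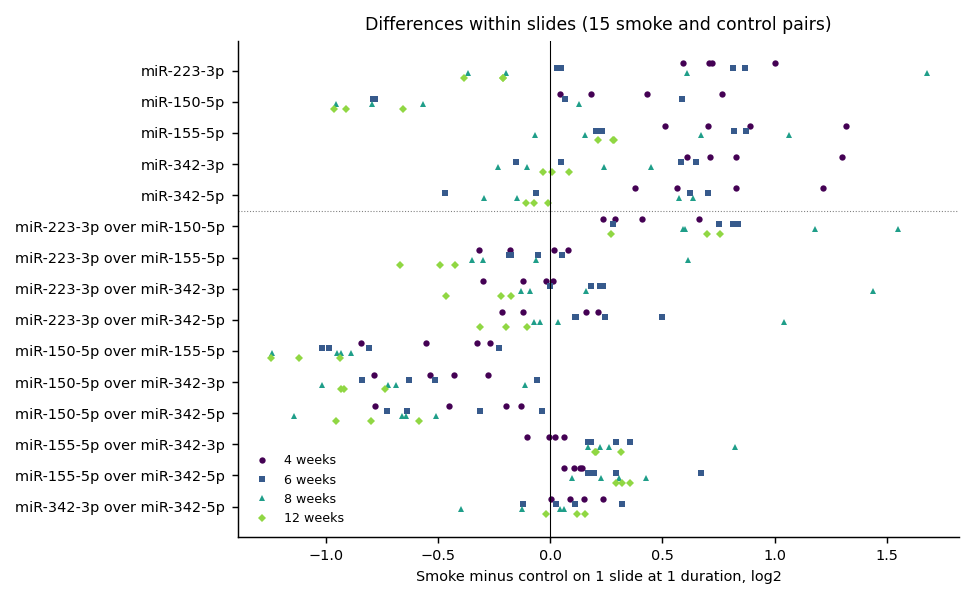
Each row is 1 miRNA's level (upper 5) or 1 pair's ratio (lower 10), and each point the smoke minus control difference in log2 (x axis) on 1 slide at 1 duration, with the marker giving the duration. All 15 points of miR-150-5p over miR-155-5p lie below 0, while the points of the level of miR-150-5p lie on both sides.

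The levels followed the leading component of the other miRNAs and the ratios mostly did not. Over the 31 arrays, the correlation (Pearson r, a description) with the component score was 0.92 for miR-342-3p, 0.94 for miR-342-5p, 0.81 for miR-155-5p, 0.73 for miR-223-3p and 0.68 for miR-150-5p. Of the 10 ratios, 9 lay between -0.10 and 0.16, and miR-342-3p over miR-342-5p lay at -0.37. The pooled standard deviation within groups was 0.26 to 0.41 log2 for the levels and 0.095 to 0.27 log2 for the ratios. The part of this component in the differences between groups was not tested beyond a fit with its score as a covariate, added after seeing the data. In that fit the 4 weeks differences of miR-223-3p and miR-342-5p shrank to 0.15 and 0.09 log2 and did not pass, that of miR-150-5p turned to -0.24, and those of miR-155-5p (0.25 ± 0.08) and miR-342-3p (0.33 ± 0.05) passed. Averaged, miR-155-5p was at 0.41 ± 0.04 and miR-150-5p at -0.43 ± 0.07 log2 (limma adjusted p 6.4e-10 and 1.9e-05).

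**Figure D5:**
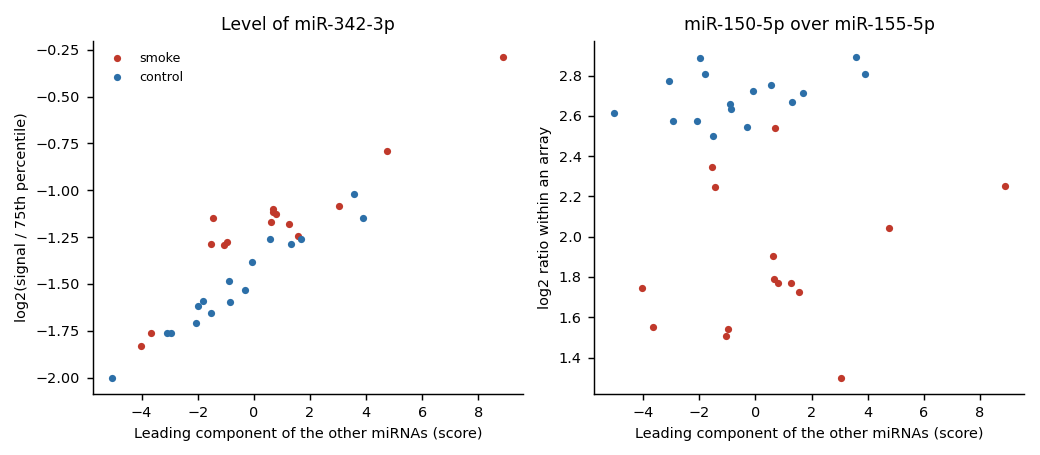
The left panel plots the level of miR-342-3p and the right panel the log2 ratio of miR-150-5p over miR-155-5p (y axes) against each array's score on the leading component of the other miRNAs (x axis, no unit), with smoke arrays red and control arrays blue. The level rises along the component, and the ratio separates smoke from control arrays across its range apart from 1 smoke array at 2.54, within the control range of 2.50 to 2.89.

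Each miRNA was read from its brightest probe. miR-223-3p, miR-150-5p, miR-155-5p and miR-342-3p have 2 probes each, all above background on all 31 arrays, and the dimmer probe correlated with the brighter at 0.984, 0.995, 0.986 and 0.998. miR-342-5p has 4 probes, of which 1 was above background on all 31 arrays, 1 on 13 and 2 on none. With the dimmer probes of the other 4 miRNAs, 7 of the 10 pairs again passed, and miR-150-5p over miR-155-5p was among them.

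The tested miRNAs whose level over the 31 arrays was most like each of the 5 were chosen by Pearson r, with the r of deviations from group means in the same order. For miR-342-3p it was its other arm, miR-342-5p (0.96 and 0.97), then miR-674-3p (0.93 and 0.96) and miR-200c-3p (0.92 and 0.95). For miR-342-5p it was miR-342-3p, then miR-1904 (0.92 and 0.89) and miR-202-3p (0.91 and 0.88). For miR-155-5p it was miR-532-3p (0.92 and 0.95), miR-342-3p (0.90 and 0.95) and miR-672-5p (0.90 and 0.87). miR-223-3p was most like miR-139-5p (0.91 and 0.89), miR-130b-3p (0.85 and 0.92) and miR-340-3p (0.84 and 0.82), and miR-150-5p most like miR-467b-5p (0.87 and 0.92), miR-7a-1-3p (0.85 and 0.91) and miR-125b-5p (0.85 and 0.86). Among the 5, miR-150-5p correlated with the others at 0.42 to 0.65 over all arrays and at 0.79 to 0.86 within groups. These arrays share scaling and the leading component, so the values describe them only.

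Other miRNAs of leukocytes were listed from general knowledge with earlier results of these data known. Of the 13 listed, 9 are on the array and 6 were tested, and averaged over the durations 2 rose, 2 fell and 2 did not pass (median -0.09 log2, against -0.01 over all tested). The rises were miR-146b-5p (1.24 ± 0.04 log2) and miR-146a-5p (0.43 ± 0.08), which share a seed, the second a brake on inflammatory signalling that is induced through NF-kB. The falls were both arms of miR-142, a miRNA of all haematopoietic cells, at -0.65 ± 0.17 for miR-142-3p and -0.65 ± 0.13 for miR-142-5p. At 4 weeks, where 4 of the 5 leukocyte miRNAs rose, miR-146b-5p (1.28 log2) and miR-146a-5p (0.48) rose as well. Both miR-142 arms fell there, and the other 2 tested did not pass. The summed level of the miR-142 arms was 0.21 to 2.57 on smoke arrays, against 2.80 to 2.91 on control arrays. The share of all tested miRNAs apart downward at 4 weeks is not given here. For the 9 listed miRNAs on the array, the summed level was 2.90 to 3.39 on smoke and 3.38 to 3.51 on control arrays, which overlapped. The listed miR-150-3p, miR-511-5p and miR-147-3p were above background on no array.

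Markers of other lung cells were read beside these values. Both endothelial miR-126 arms were measured. At 4 weeks their summed level was 4.87 to 4.97 on smoke arrays and 4.77 to 4.99 on control arrays, which overlapped. At 12 weeks it was 4.83 to 4.94 on smoke and 5.07 to 5.14 on control arrays. Of all tested miRNAs taken singly, 25.5% lay apart downward at 12 weeks. There miR-126-3p fell (-0.25 log2, limma adjusted p 0.042) and miR-126-5p did not pass (0.001 log2). At that duration miR-150-5p lay lower, without passing, and a link between them was not tested. The 5 epithelial miRNAs of the miR-200 family had a summed level of 2.75 to 3.08 on smoke and 2.56 to 2.72 on control arrays at 4 weeks. There miR-200c-3p (0.57 log2), miR-200b-3p (0.43) and miR-429-3p (0.37) rose, and miR-141-3p (-0.93, limma adjusted p 0.0501) and miR-200a-3p (-0.28) did not pass. The summed level of the 4 smooth muscle and mesenchymal miRNAs was 2.49 to 2.70 on smoke and 2.35 to 2.51 on control arrays at 4 weeks, where miR-199a-3p rose (0.22 log2, limma adjusted p 0.042) and the other 3 did not pass. That of the 2 erythroid miRNAs was 6.00 to 6.11 on smoke and 5.72 to 6.06 on control arrays, where miR-144-3p fell (-1.31, 0.047) and miR-451 did not pass (0.11). The summed level of the striated muscle miRNAs, highest on 8 weeks smoke array 3 (2.58) and among 4 weeks control arrays (up to 2.50, arrays 1 and 4), stood at -0.50 to 1.2 elsewhere, and without these 3 arrays 1 of the 5 leukocyte miRNAs passed at 4 weeks, miR-342-3p. With all arrays the striated muscle miR-133a-3p fell at 4 weeks (-0.93 log2, limma adjusted p 0.043) and miR-1a-3p did not pass (-0.84). The liver miRNA miR-122-5p lay at the floor on all 16 control arrays and reached 1.57 on 1 array of 12 weeks smoke. The part of these markers in the differences was not tested.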

How the data were processed

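Lung RNA of 31 samples was measured on 1-colour Agilent miRNA arrays. The spot values are scanner intensity that Feature Extraction 10.7.3.1 had background-subtracted and detrended, per the file headers. In the table deposited for the whole series the authors give log2 values, and no source used here names their normalization. Its array medians were 2.71 to 2.85, and per array it correlated at 0.981 to 0.989 with the scaled scanner signal, from which its scale and direction were read. Its centring stays unknown. Of 13715 spots per array, 13000 were not controls; 297 to 655 spots marked as outliers were left out and the spots of a probe averaged. Signals were scaled to the array's own 75th percentile, taken over those 385 probes that all 31 arrays detected (above background on 50% of spots). Signals under log2 -6.74 were set to it, log2 was taken, and the brightest probe stood for a miRNA. Detection on 75% of arrays in at least 1 group was required for testing; 273 miRNAs met this, and 2 of them, at the floor on every array, were left out, leaving 271. The precision is limited by the number of arrays.

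limma 3.58.1 in R 4.3.3 gave each group its own mean and moderated the variances (23 residual degrees of freedom); a call is a Benjamini-Hochberg adjusted p of 0.05 or less over all tested miRNAs, and a change in the text means a call. The fit was tested on simulated data. Ratios within arrays were tested by exact permutation. Groups and replicate numbers come from the sample titles. Same-numbered smoke and control arrays deviated together at r -0.22 to 0.40, over 0.1 in 7 of 15, so numbers were not taken as pairs; arrays of the same slide gave -0.08 to 0.40. The members and lists were chosen with earlier results of these data known. Named miRNAs are the 5 members, the listed leukocyte miRNAs that passed, the 3 most alike to each member and the markers. Alternatives were other scalings, backgrounds, probe summaries, filters, floors, blocks, covariates and left-out arrays. The normexp correction (offset 50) used the median spot signal, since the mean signal was not among the columns used here.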

Additional observations from a re-analysis of the deposited data

Results flagged for a closer look

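Of 105 groups of 4 arrays examined over the 5 levels and 10 ratios, 6 had an array set apart from the other 3 by Dixon's test; chance gives about 1 in 20. For the levels, miR-223-3p on 6 weeks smoke array 3 (1.22) lay below the other 3 (1.28 to 1.29), and miR-150-5p on 6 weeks smoke array 2 (-1.12) above them (-1.78 to -1.73). For the ratios, miR-223-3p over miR-150-5p on 4 weeks smoke array 2 (2.44) lay below the others (2.80 to 2.87), miR-223-3p over miR-342-5p on 8 weeks smoke array 4 (7.95) above them (6.64 to 6.78), miR-223-3p over miR-342-3p on 6 weeks control array 4 (2.39) above them (2.18 to 2.20), and miR-342-3p over miR-342-5p on 8 weeks control array 4 (4.61) above them (4.36 to 4.40).

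miR-223-3p was higher on all smoke arrays than on all control arrays at 4 weeks (0.76 log2) and lower on all of them at 12 weeks (-0.25 log2). Of all tested miRNAs, 23.6% were apart upward at 4 weeks and 25.5% downward at 12 weeks. The test of a smoke effect differing between durations did not pass for it (limma F test, adjusted p 0.21).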

How the results depend on the processing

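Counts are of the 5 miRNAs called, main value first. At 4 weeks, 4 became 0 with no scaling and without smoke arrays 2 and 3. It became 1 with normexp, with that duration alone and without the 3 muscle-high arrays. It became 2 with the component score as a covariate, which was chosen after seeing the data. The left-out sets of arrays named here also stand out by values measured on them. The count became 3 with quantile scaling, the mean of probes, the scanner sum, the series table, every probe required and the floor 4 times higher. Leaving out 1 array gave 2 to 4. At 6 weeks, 0 became 1 when scaled by all probes, with the 75th percentile as a covariate and without 4 weeks smoke arrays 2 and 3, and 3 with the component; leaving out 1 array gave 0. At 8 weeks, 0 became 2 when scaled by all probes, 3 with no scaling and with the component, and 1 with the percentile covariate; leaving out 1 array gave 0 to 1. At 12 weeks, 0 became 2 when scaled by all probes, 3 with the component and with that duration alone, and 1 with quantile scaling, the mean of probes, the scanner sum, the deposited series table, detection on every array, the percentile covariate, and without 4 weeks smoke arrays 2 and 3 or the liver-high array; leaving out 1 array gave 0 to 1. Averaged, 2 became 5 when scaled by all probes, 4 with quantile scaling and with the component, 0 with normexp, and 3 with the mean of probes, the series table, the percentile covariate and without 4 weeks smoke arrays 2 and 3 or the 3 muscle-high arrays; leaving out 1 array gave 2 to 4, the 4 without 8 weeks smoke array 2 or 3. For the smoke effect between durations, 0 became 4 with no scaling, 1 with the series table and the component, and 3 with the percentile covariate, and 0 to 3 without 1 array. Among control durations, 0 became 3 when scaled by all probes, 2 with the component, and 1 with no scaling, the percentile covariate and without 4 weeks smoke arrays 2 and 3. Among smoke durations, 0 became 1 with the series table and 3 with either covariate. Both gave 0 to 1 without 1 array. The causes were not tested.

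Values that changed direction were as follows, in log2 apart from the likenesses, which are Pearson r. With normexp, at 4 weeks, miR-150-5p was at -0.011, miR-155-5p at -0.38 and miR-342-5p at -0.84, miR-342-5p was at -0.11 at 6 weeks and at -0.21 on average, miR-223-3p over miR-155-5p was at 0.19 and miR-155-5p over miR-342-3p at -0.035, and the likeness of miR-223-3p was -0.038 to miR-130b-3p and -0.10 to miR-340-3p. With no scaling, at 8 weeks, miR-223-3p was at -0.39, miR-155-5p at -0.36, miR-342-3p at -0.73 and miR-342-5p at -0.63, and at 12 weeks miR-223-3p was at 0.068 and miR-342-5p at 0.28. The percentile covariate gave -0.27 for miR-342-3p and -0.25 for miR-342-5p at 8 weeks and 0.13 for miR-342-5p at 12 weeks, and the component -0.24 for miR-150-5p at 4 weeks and 0.093 for miR-342-5p at 12 weeks. miR-342-5p was at 0.10 at 12 weeks when scaled by all probes, at -0.12 at 8 weeks with the scanner sum, and with its dimmer probe at -0.030 at 6 and 0.0068 at 12 weeks; miR-342-3p was at -0.0057 at 12 weeks with the scanner sum, and from -0.044 without smoke array 1 to 0.20 without smoke array 3 at 8 weeks. miR-223-3p over miR-342-3p was at -0.023 with the mean of probes, -0.00029 with the scanner sum, -0.032 with the series table, -0.063 without 8 weeks smoke array 4 (0.064 without 8 weeks smoke array 3) and -0.070 with the other probes, and over miR-342-5p at -0.0078 and -0.024 in the last 2 of these.

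With the replicate number as a block, the count was again 4 at 4 weeks, 2 on average and 0 in the other 6 tests. Of the 10 pairs, 6 passed in place of 7, since miR-223-3p over miR-155-5p had -0.20 (sign flips, adjusted p 0.069). This pairing was not borne out by the arrays, and at 4, 6 and 8 weeks it is the same as that by slide. The number of pairs passing was 6 to 9 over all alternatives run. The pair test was not run with covariates, other filters or 1 duration alone. Over all tested miRNAs, the alternatives moved the calls from 102 to between 4 and 149 at 4 weeks, from 21 to between 2 and 78 at 6, from 29 to between 3 and 201 at 8, from 25 to between 4 and 103 at 12 and from 73 to between 12 and 150 on average. They moved the F tests' calls from 17 to between 0 and 160 (11 with the replicate block), from 18 to between 4 and 150 among control and from 8 to between 0 and 97 among smoke durations. The median difference of all tested miRNAs moved by over 0.1 log2 at 4 weeks, from 0.18 to 0.069 when scaled by all probes or by quantiles and 0.064 in the series table, at 12 weeks from -0.08 to 0.04 when scaled by all probes, and with no scaling to -0.86 at 8 weeks, 0.20 at 12 weeks and -0.15 on average. Dim signal limits miR-342-5p: with the floor 4 times higher its 4 weeks difference of 0.75 log2 became 0.040.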
